A study of Mus musculus with 24 samples.

Results

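Kidney cortex of 12 FGF21 KO mice was compared with kidney cortex of 12 WT mice, with the diets pooled and diet held as a covariate. All 24 libraries of the series entered this comparison, 1 library per sample, and 15165 of the 16921 genes in the count table passed the filter on low counts and were tested. The KO libraries came from 6 mice on a normal protein diet with 20% casein (KO_NP) and 6 on a low protein diet with 5% casein (KO_LP), and the WT libraries from 6 mice on each of the same diets (WT_NP and WT_LP). Every mouse was male, was labelled as C57BL6/J background, had begun its diet at 3 months of age and was 22 months old at sampling. Lexogen QuantSeq, a method that reads transcripts near their 3′ ends, was run with forward reads of 50 bases. How the Fgf21 allele was made and bred, and whether KO and WT mice were littermates, is not given in the sources used here.

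FGF21 is a hormone made mostly by the liver. It signals through FGF receptors, chiefly FGFR1, together with the co-receptor beta-klotho, which Klb encodes, and its level in blood rises when the diet is poor in protein. The kidney cortex is built mainly of proximal tubule, which takes back sugars, amino acids and salts from the filtrate. The Fgf21 gene lies on chromosome 7 (chr7:45613886-45615490, minus strand, GRCm38). Neither Fgf21 nor Klb has a row in the tables, so the KO labels could not be checked on the deleted gene.

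Library totals ran from 8.47 to 16.3 M counts in KO and from 10.6 to 21.1 M in WT, with means of 12.9 ± 1.99 M in KO and 16.6 ± 2.54 M in WT (SD, n = 12 each; difference -3.65 M, two-sided permutation test, p = 0.00074, adjusted p = 0.00779 over 19 library measures). The share of counts from mitochondrial genes was 25.6% ± 3.32 in KO and 25.6% ± 1.59 in WT, but the difference had opposite signs on the diets: it was 28.1% in KO and 25.3% in WT on NP, and 23.1% in KO and 25.9% in WT on LP (exact permutation tests, adjusted p = 0.11 and 0.106). Proximal tubule markers (segments S1 and S2) summed to between 4556 and 9239 CPM (counts scaled to the library total) in KO and between 5569 and 9419 CPM in WT. Markers of medulla and papilla were lower in KO, with a mean log2 CPM of 4.97 ± 0.377 in KO and 5.56 ± 0.347 in WT (SD, n = 12 each; difference -0.59, permutation test, adjusted p = 0.00779). Endothelial markers were lower too (4.87 ± 0.119 in KO, 5.03 ± 0.105 in WT; difference -0.16, permutation test, adjusted p = 0.0138). The sample index numbers in the labels run in blocks by group, so a batch that followed the groups cannot be told apart from genotype.

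The genotype effect was spread over 504 genes, or 3.32% of those tested (edgeR quasi-likelihood test, adjusted p under 0.05), of which 230 were higher in KO (1.52%) and 274 lower (1.81%). Most effects were small: the median absolute log2 fold of the called genes was 0.41, and 84 of them changed at least 2-fold, 50 higher and 34 lower. The median log2 fold over all genes tested was 0.00. Called genes were most frequent, among the nuclear chromosomes with over 100 genes tested, on chromosomes 7, 9 and 19, of which chromosome 7 carries Fgf21. In 24 genes (0.158% of those tested) no KO library overlapped any WT library. Of those 24 genes, 19 lie on chromosome 7 and 3 on chromosome 9.

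On chromosome 7 the test called 92 of 1195 genes (7.70%), on chromosome 9 54 of 836 (6.46%) and on chromosome 19 21 of 504 (4.17%). On the other autosomes and on chromosome X the share was between 1.70% and 3.61%. The mitochondrial chromosome had 4 of 21 genes called, all lower in KO: the ribosomal RNA mt-Rnr1 and the transfer RNAs mt-Tq, mt-Tp and mt-Ts2. None of the 8 mitochondrial messenger RNAs tested was called.

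**Figure D1:**
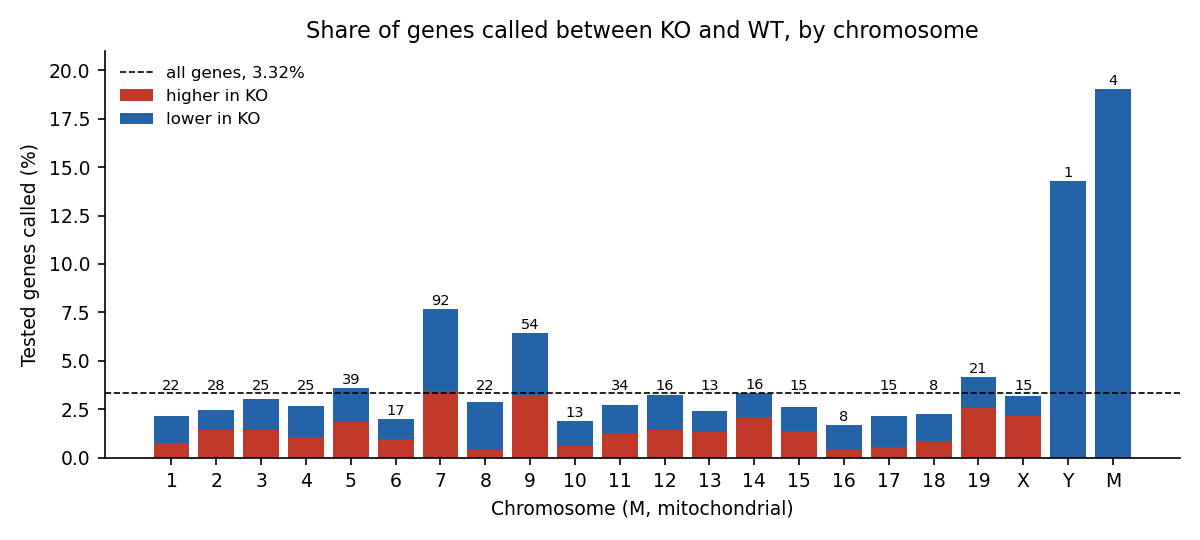
Share of tested genes called between KO and WT on each chromosome (bars, percent; number of called genes above each bar), split into genes higher and genes lower in KO, with the share over all genes (3.32%) as a dashed line. Chromosomes 7 and 9 stand at 7.70% and 6.46%, and the tall bars of chromosomes Y and M rest on 1 and 4 called genes.

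Along chromosome 7 the called genes lay mostly between 20 and 100 Mb, a stretch marked out after its values were seen: 76 of 594 genes tested there were called (12.8%; 33 higher, 43 lower), against 16 of the 601 elsewhere on the chromosome (2.66%). The share was 17.2% within 1 Mb of the Fgf21 start (11 of 64 genes) and 3.16% beyond 60 Mb (12 of 380). In between it ran 11.3% from 1 to 5 Mb, 23.8% from 5 to 10 Mb (21 genes), 11.1% from 10 to 20 Mb, 8.89% from 20 to 40 Mb and 5.24% from 40 to 60 Mb. The called genes of the 20 to 100 Mb stretch also changed more, with a median absolute log2 fold of 0.76, against 0.38 for the 402 called genes outside the stretches on chromosomes 7, 9 and 19 described here.

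**Figure D2:**
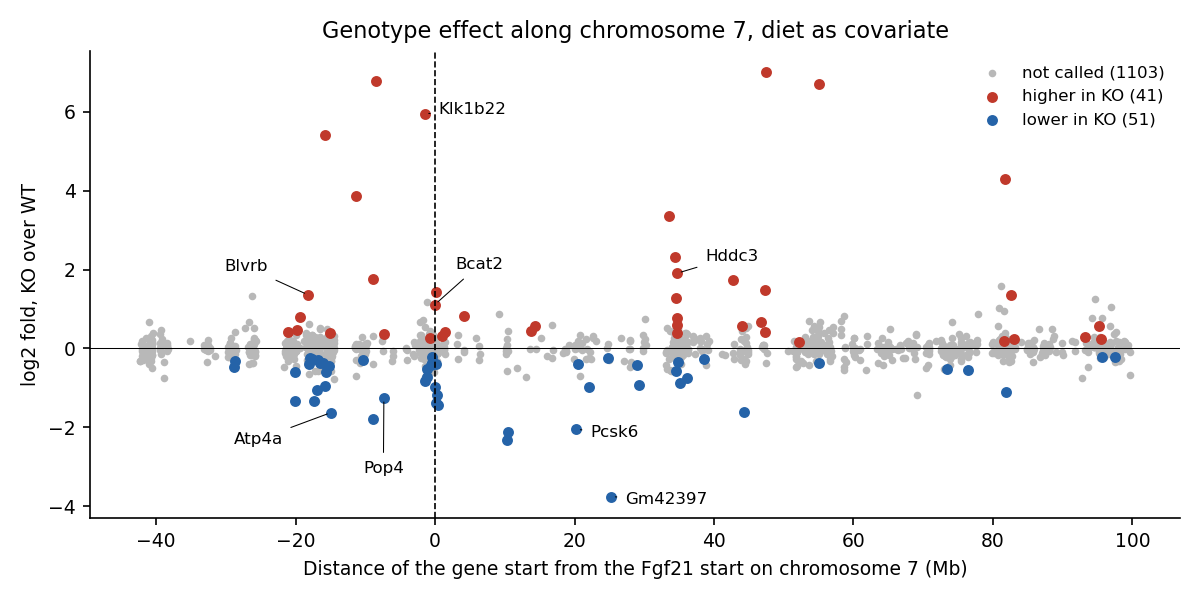
log2 fold of KO over WT for the 1195 tested genes of chromosome 7, by distance of the gene start from the start of Fgf21 in Mb (dashed line at 0), with called genes coloured. Of the 92 coloured points 41 lie above 0 and 51 below, and Klk1b22 stands at 5.95.

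Klk1b22, near Fgf21, had the smallest p of all genes tested. It encodes a tissue kallikrein, a serine protease, and lies 1.5 Mb from Fgf21 (chr7:44112673-44116922). It stood at 49.2 to 132 CPM in KO (median 74.2) and at 0.26 to 1.74 CPM in WT (median 1.30). The groups were far apart, with a log2 fold of 5.95 (SE 0.20, edgeR adjusted p = 2.46e-16) and the same size on both diets (6.01 on NP, 5.88 on LP). Klk1, the main renal kallikrein, moved the other way: it stood at 302 to 767 CPM in KO (median 504) and 496 to 1338 CPM in WT (median 945), with a log2 fold of -0.84 (SE 0.16, edgeR adjusted p = 0.00318). The log2 fold of Klk1 was -0.49 on NP, where it was not called (edgeR adjusted p = 0.304), and -1.18 on LP (adjusted p = 0.00238). The other 7 tested genes of the kallikrein list were not called, with log2 folds between -0.45 (Klk1b5) and 0.54 (Klk1b21). Klk1b22 shares 86.8% of its bases with Klk1b9, and 18 of its 806 stretches of 50 bases occur unchanged in Klk1b9 and 1 in Klk1.

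Bcat2 lies next to Fgf21 and encodes the mitochondrial enzyme that starts the breakdown of leucine, isoleucine and valine. Its level was 15.8 to 31.7 CPM in KO (median 20.8) and 5.89 to 13.1 CPM in WT (median 10.6), without overlap (log2 fold 1.11, SE 0.13, edgeR adjusted p = 5.2e-06). The difference was 1.47 on NP and 0.75 on LP. Car11, a carbonic anhydrase-related protein without known enzyme activity, was at 3.59 to 5.89 CPM in KO and 0.90 to 2.10 CPM in WT (log2 fold 1.44, adjusted p = 2.34e-09). Lmtk3, a membrane kinase, was at 0.77 to 1.89 CPM in KO and 2.42 to 5.33 CPM in WT (log2 fold -1.37, adjusted p = 4.01e-06). Emc10, a subunit of the complex that inserts membrane proteins into the endoplasmic reticulum, was at 56.6 to 79.0 CPM in KO and 96.5 to 115 CPM in WT (log2 fold -0.73, SE 0.05, adjusted p = 5.79e-11). The libraries of KO and WT did not overlap in any of these 4 genes. Of the 41 tested members of a list of genes neighbouring Fgf21, 2 were called higher in KO (Bcat2 and Car11) and 6 lower, where 3.32% of all genes were called. The list's median log2 fold was -0.02. Besides Lmtk3, the lower members were the steroid dehydrogenase gene Hsd17b14 (log2 fold -0.98), the sphingosine kinase gene Sphk2 (-0.39), the arginine methyltransferase gene Prmt1 (-0.41), the antibody receptor gene Fcgrt (-0.37) and the ribosomal protein gene Rpl13a (-0.21), whose call ended without any of 18 single libraries (adjusted p up to 0.0848).

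Farther from Fgf21 the same kind of separation was seen in single genes. Pop4, a subunit of the RNase P and RNase MRP enzymes (chr7:38261996-38271423), stood at 4.86 to 7.04 CPM in KO (median 5.79) and 11.3 to 16.9 CPM in WT (median 13.6), with a log2 fold of -1.25 (SE 0.07, edgeR adjusted p = 5.13e-12). Hddc3, which encodes a pyrophosphohydrolase (chr7:80343104-80350547), stood at 18.7 to 32.0 CPM in KO (median 27.1) and 5.52 to 8.39 CPM in WT (median 6.72), with a log2 fold of 1.91 (SE 0.09, adjusted p = 7.34e-14). Crtc3, a co-activator of CREB, was lower in KO (9.57 to 14.9 CPM in KO, 17.8 to 27.1 CPM in WT; log2 fold -0.88, adjusted p = 1.61e-07). In all 3 genes every KO library lay on one side of every WT library, and Hddc3 was lowest among KO in KO_NP 6.

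Blvrb, which encodes biliverdin reductase B of heme breakdown, was at 41.5 to 85.4 CPM in KO (median 55.3) and 18.3 to 25.9 CPM in WT (median 22.8; log2 fold 1.36, SE 0.10, edgeR adjusted p = 1.19e-09). Mrps12, a protein of the mitochondrial ribosome, was at 18.5 to 50.5 CPM in KO and 56.0 to 75.6 CPM in WT (log2 fold -1.05, adjusted p = 0.000157). Atp4a, the alpha subunit of the gastric type proton pump, also did not overlap, but its KO libraries differed widely among themselves. KO libraries NP 1, NP 3, NP 6, LP 2 and LP 4 held 1.21 to 2.28 CPM of it and the other 7 between 6.42 and 18.6 CPM, while the WT libraries held 20.6 to 41.1 CPM (log2 fold -1.62, SE 0.37, adjusted p = 0.0147). Pcsk6, a proprotein convertase, had the largest fall among the genes named by size, at 1.63 to 11.4 CPM in KO (median 3.73) and 7.89 to 28.5 CPM in WT (median 17.7), with a log2 fold of -2.05 (SE 0.23, adjusted p = 2.99e-06). Its KO and WT libraries overlapped only at KO_NP 4, WT_LP 1 and WT_LP 2. Ceacam2, a cell adhesion molecule of the CEA family, fell by 1.33 on the log2 scale, and Lrrc28 fell by 0.97.

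Some chromosome 7 transcripts without a known product were present in 1 genotype and nearly absent in the other; those named here were chosen after their values were seen. Gm28078 had counts in all 12 KO libraries (144 in all) and 0 in all 12 WT libraries, which makes it at least 61.6-fold higher in KO if the WT group is set at the 3 counts that a count of 0 allows. Gm42397 was at or below 0.459 CPM in 11 KO libraries but at 5.04 CPM in KO_NP 6, against 4.32 to 12.5 CPM in WT (log2 fold -3.76, edgeR adjusted p = 1.4e-05, and -5.02 without KO_NP 6). Gm35082 was at 2.58 to 8.66 CPM in 7 KO libraries and at 0 in KO_NP 3, KO_NP 6, KO_LP 2, KO_LP 3 and KO_LP 4, against 4 counts in the 12 WT libraries together; limma voom did not call it (adjusted p = 0.086). For Gm42397 and Gm35082 the KO libraries were thus not alike.

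On chromosome 9 the called genes were densest between 40 and 50 Mb, where 20 of 86 tested genes were called (23.3%; 12 higher, 8 lower), a window picked out after its values were seen. The 8 lower genes include Hspa8 and Rnf26, whose counts cannot be separated with certainty from those of near-identical copies, as described below. Mpzl2, an adhesion protein of epithelia, was at 28.9 to 70.8 CPM in KO (median 38.2) and 12.8 to 29.2 CPM in WT (median 22.1), with a log2 fold of 1.01 (SE 0.14, edgeR adjusted p = 5e-05). Fxyd6, a regulator of the sodium pump, was at 6.13 to 30.4 CPM in KO (median 17.0) and 5.67 to 10.1 CPM in WT (median 7.12; log2 fold 1.27, adjusted p = 2.33e-05). Only KO_NP 6, the lowest KO library, lay inside the WT range of Fxyd6. Tmprss4, a membrane serine protease, was higher in KO (log2 fold 2.17), as were the trehalase gene Treh (0.68) and the apolipoprotein gene Apoc3 (1.09, adjusted p = 0.0217, and 0.0566 with limma on the log2 normalized values). Apoc3 was highest in KO_LP 6, at 53.7 CPM, where the other 11 KO libraries held 4.59 to 21.2 CPM and the WT libraries 4.74 to 10.4 CPM; without KO_LP 6 its log2 fold was 0.80. Zbtb16, a zinc finger repressor, fell to 1.39 to 6.88 CPM in KO (median 3.93), against 6.06 to 33.2 CPM in WT (median 8.99; log2 fold -1.59, adjusted p = 0.00281). Cryab, a small heat shock protein just past the window (chr9:50751325-50756636), was at 51.2 to 120 CPM in KO and 85.8 to 222 CPM in WT (log2 fold -0.85, adjusted p = 0.000429).

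The KO libraries were not alike in this window. KO_NP 6 lay inside the WT range for 16 of the 20 called genes, whereas each of the other 11 KO libraries did so for 1 to 6 of them. Hspa8 and Rnf26, whose counts are uncertain, are among those 16 genes. For the 76 called genes of chromosome 7 between 20 and 100 Mb, KO_NP 6 lay inside the WT range for 28 genes and the other KO libraries for 14 to 23. For the 402 called genes outside these stretches it did so for 204, within the span of 167 to 238 over all KO libraries. These counts were made on genes already called with KO_NP 6 among the KO libraries, so they describe the libraries and were not tested.

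On chromosome 19 a pair of neighbouring aldehyde dehydrogenase genes rose. Aldh1a1 (chr19:20492715-20643465), which makes retinoic acid from retinaldehyde, was at 38.3 to 195 CPM in KO (median 97.2) and 18.8 to 39.2 CPM in WT (median 24.6), with a log2 fold of 1.90 (SE 0.19, edgeR adjusted p = 7.56e-07). Aldh1a7 (chr19:20692953-20727562), a close relative, was at 34.4 to 106 CPM in KO (median 57.1) and 17.1 to 53.1 CPM in WT (median 20.7; log2 fold 1.21, SE 0.15, adjusted p = 1.49e-05). KO_LP 1 was the lowest KO library for both genes, and only that library overlapped WT for Aldh1a1. The transcripts of the pair agree in 88.8% of aligned bases, and 7.49% of the stretches of 50 bases of Aldh1a7 occur unchanged in Aldh1a1, so reads from those stretches could have been counted for either gene. Ostf1, an SH3 domain protein (chr19:18516137-18631823), was higher as well (83.0 to 164 CPM in KO, 66.5 to 83.4 CPM in WT; log2 fold 0.66, adjusted p = 0.000186). The window from 20 to 30 Mb, likewise picked out after its values were seen, held 6 called genes of 51 tested (11.8%; 4 higher, 2 lower).

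**Figure D3:**
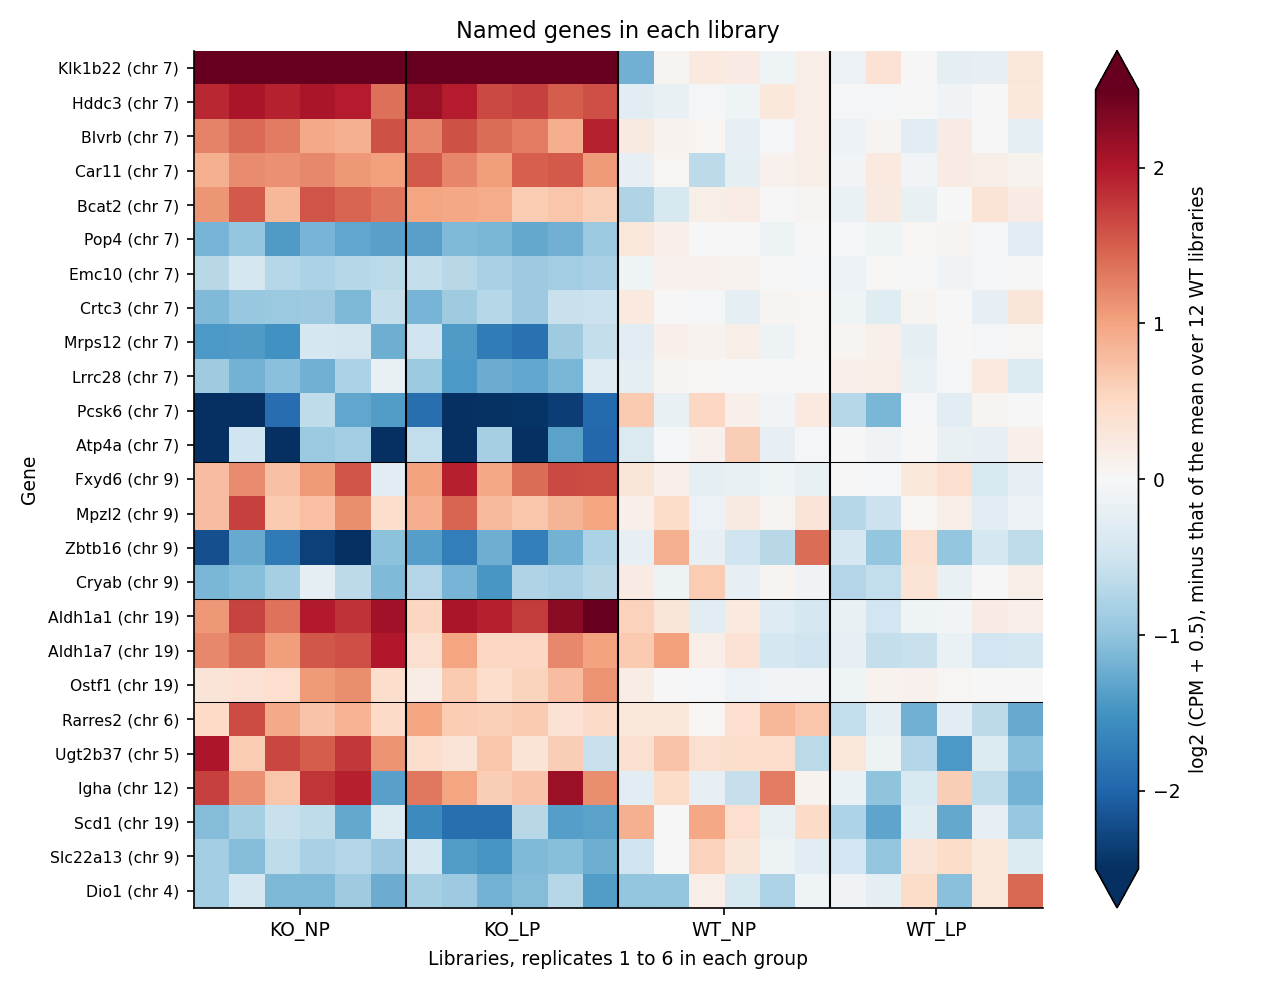
Level of 25 genes in each of the 24 libraries, as log2 (CPM + 0.5) minus that of the mean over the 12 WT libraries (colour scale ends at 2.5 in either direction), with genes ordered by chromosome group and KO libraries left of WT libraries. Klk1b22, Hddc3 and Blvrb are higher in all 12 KO libraries and Pop4 lower in all 12, while Atp4a and Fxyd6 differ among KO libraries.

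A set of genes far higher in KO than in WT are near-identical copies of other genes, and their counts cannot be separated from those of the parent gene with certainty. Gm11942, annotated as a processed pseudogene on chromosome 4, matches the whole coding part of Rplp1 (345 bases, 97.4% identical, 9 differences). Of its stretches of 50 bases, 29.4% occur unchanged in Rplp1, so most of them differ from Rplp1 by at least 1 base. Rplp1, on chromosome 9, encodes an acidic protein of the ribosomal stalk. Gm15459, a processed pseudogene on chromosome 5, matches the coding part of Hspa8 (1941 bases, 99.7% identical, 5 differences), and 86.8% of its stretches of 50 bases occur unchanged in Hspa8, the constitutive heat shock 70 chaperone gene on chromosome 9. Gm9008, on chromosome 6, matches Rnf26 of chromosome 9 over 1667 bases (99.1% identical), and 60.1% of its stretches of 50 bases occur unchanged in Rnf26. The stretches below were taken from the GENCODE M21 transcripts on GRCm38, with differing bases in capitals. They show bases that tell Gm11942 (chr4:32964888-32965232, plus strand) from Rplp1 (chr9:61913284-61914542, minus strand). They also show bases that tell Gm15459 (chr5:5781615-5783555, minus strand) from Hspa8 (chr9:40800984-40810087, plus strand).
Gm11942: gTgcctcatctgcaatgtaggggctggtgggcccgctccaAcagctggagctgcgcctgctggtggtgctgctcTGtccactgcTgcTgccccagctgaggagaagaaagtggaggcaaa
Rplp1: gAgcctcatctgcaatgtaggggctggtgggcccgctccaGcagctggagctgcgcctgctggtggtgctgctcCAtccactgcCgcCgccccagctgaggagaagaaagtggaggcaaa
Gm15459: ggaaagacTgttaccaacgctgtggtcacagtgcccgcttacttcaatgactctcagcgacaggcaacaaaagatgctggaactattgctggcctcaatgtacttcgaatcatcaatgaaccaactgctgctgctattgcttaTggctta
Hspa8: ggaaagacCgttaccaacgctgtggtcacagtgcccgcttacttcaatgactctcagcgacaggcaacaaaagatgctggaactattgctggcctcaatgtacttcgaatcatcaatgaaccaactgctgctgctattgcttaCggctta

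Gm11942 stood at 562 to 1612 CPM in 10 KO libraries, at 1.42 CPM in KO_NP 4 and at 1.68 CPM in KO_NP 6, and at 0.365 to 2.90 CPM in WT. KO_NP 4 and KO_NP 6 were thus inside the WT range. Rplp1 ran the opposite way in the same libraries: it was at 1025 CPM in KO_NP 4, 1041 CPM in KO_NP 6 and 575 to 906 CPM in the other 10 KO libraries, against 1023 to 1340 CPM in WT. KO_NP 4 and KO_NP 6 were inside the WT range. Rplp1 was lowest in KO_LP 2, where Gm11942 was highest. As deposited, Rplp1 was lower in KO (log2 fold -0.48, SE 0.08, edgeR adjusted p = 0.000603). Of its other copies, Gm10073 was lower in KO (log2 fold -0.68, edgeR adjusted p = 0.0014) and Gm17511 higher (4.30, adjusted p = 9.17e-05). The share of stretches of 50 bases that occur unchanged in Rplp1 is 60.4% for Gm10073 and 17.4% for Gm17511. With the counts of Rplp1 and of its copies Gm11942, Gm17511 and Gm10073 summed, the sign turned round: the sum was 1032 to 2197 CPM in KO (median 1396) and 1032 to 1351 CPM in WT (median 1123), with a log2 fold of 0.33 (SE 0.09, adjusted p = 0.033).

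Gm15459 stood at 56.3 to 143 CPM in 11 KO libraries, at 0.0988 CPM in KO_NP 6 and at 0 to 0.266 CPM in WT; edgeR called it (adjusted p = 6.57e-10) and limma voom did not (adjusted p = 0.143). Hspa8 was at 69.6 to 340 CPM in the 11 KO libraries with Gm15459, at 438 CPM in KO_NP 6 and at 373 to 758 CPM in WT. Its lowest values, 69.6, 74.6 and 95.2 CPM, were in KO_NP 2, KO_LP 2 and KO_NP 5, the libraries with the highest Gm15459. Hspa8 was lower in KO as deposited (log2 fold -1.18, SE 0.24, edgeR adjusted p = 0.00668) and less so when summed with Gm15459 (185.9 to 438 CPM in KO, 373 to 758 CPM in WT; log2 fold -0.75, SE 0.15, adjusted p = 0.00374). Rnf26 was less clear: 9 of its 12 KO libraries lay inside the WT range, and its call ended without any of 15 single libraries (adjusted p up to 0.075). Its log2 fold of -0.66 (adjusted p = 0.0412) became 0.11 (adjusted p = 0.733) when the counts of Gm9008 were added. Gm9008 was at 0 in KO_NP 6 and at 1.21 to 4.69 CPM in the other KO libraries, against 0 to 0.262 CPM in WT. The 3 parent genes all lie on chromosome 9.

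**Figure D4:**
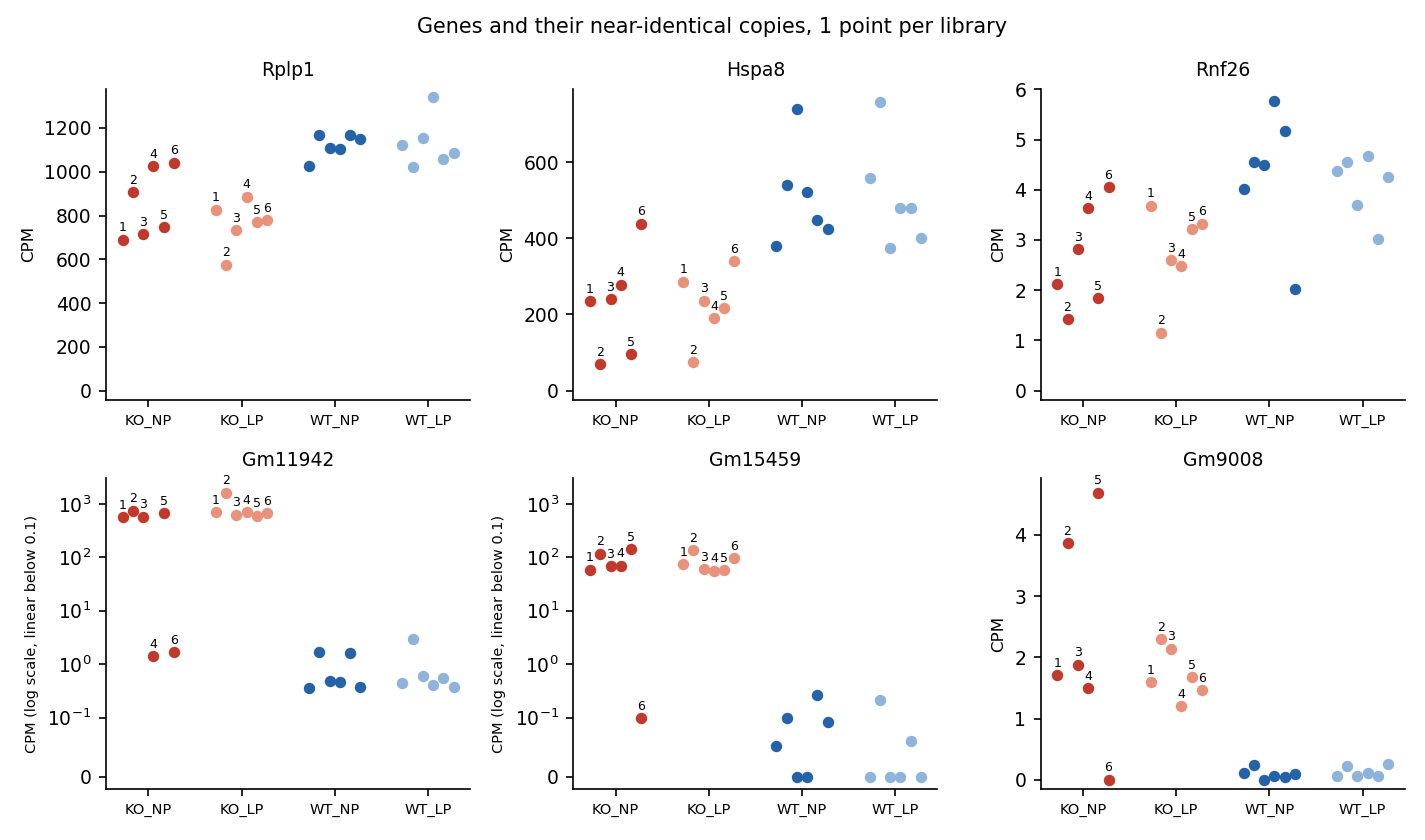
CPM of Rplp1, Hspa8 and Rnf26 (top) and of their copies Gm11942, Gm15459 and Gm9008 (bottom) in each library, KO groups left of WT groups, with replicate numbers on the KO points; each panel has its own scale, and those of Gm11942 and Gm15459 are logarithmic above 0.1 CPM. KO_NP 6 lies inside the WT range for all 6 genes, and KO_NP 4 for Rplp1, Gm11942 and Rnf26. For Rnf26, 9 of the 12 KO libraries lie inside it.

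Of the 5 tested genes on the list of Fgf21 and its receptors 1 was called, where 3.32% of all genes were. Fgfr3, a receptor for several FGFs, was higher in KO (22.0 to 32.6 CPM in KO, 16.3 to 25.3 CPM in WT; log2 fold 0.33, SE 0.07, edgeR adjusted p = 0.0113, above the WT mean in 12 of 12 libraries). Fgfr1 was at 24.1 to 34.8 CPM in KO and 25.4 to 33.7 CPM in WT (log2 fold 0.05, SE 0.06, adjusted p = 0.742). Kl, the co-receptor of FGF23, was at 75.8 to 247 CPM in KO and 92.5 to 270 CPM in WT (log2 fold -0.06, SE 0.21, adjusted p = 0.934), and its sign turned under other settings. None of the 14 tested FGF and ERK feedback genes was called, and their median log2 fold was -0.12. With 3.32% of all genes called, a list this short could hold no call by its size alone.

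Outside the chromosome stretches above, the genes with large changes had varied roles. Rarres2, the gene of chemerin, an adipokine, stood at 183 to 444 CPM in KO (median 223) and 59.4 to 253 CPM in WT (median 134; log2 fold 0.88, SE 0.16, edgeR adjusted p = 0.00236), with log2 folds of 0.47 on NP and 1.29 on LP. Ugt2b37, a glucuronosyltransferase, was at 159 to 947 CPM in KO (median 368) and 86.0 to 381 CPM in WT (median 248; log2 fold 0.995, adjusted p = 0.00385). Cyp2j9, a cytochrome P450, rose with a log2 fold of 0.85, and Cox6a2, the heart and muscle form of a cytochrome oxidase subunit, with one of 1.36; Cox6a2 lies on chromosome 7 (chr7:128205435-128206387), beyond the stretch above. The rise of Cox6a2 was 2.01 on NP and 0.58 on LP, where it was not called (edgeR adjusted p = 0.437). Fam25c rose too (log2 fold 1.01, adjusted p = 0.0319).

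Among the falls, Slc7a12, an amino acid transporter of the kidney, was at 1.39 to 16.1 CPM in KO (median 8.01) and 5.94 to 41.8 CPM in WT (median 24.2; log2 fold -1.44, SE 0.30, edgeR adjusted p = 0.00614). Slc22a13, a urate and nicotinate transporter, was at 23.2 to 48.6 CPM in KO (median 32.9) and 33.0 to 97.8 CPM in WT (median 62.6; log2 fold -0.97, SE 0.15, adjusted p = 0.000448). Dio1, the deiodinase that activates thyroid hormone, was at 7.04 to 14.2 CPM in KO (median 9.56) and 9.21 to 53.5 CPM in WT (median 17.3; log2 fold -0.94, adjusted p = 0.0212). In each of these 3 genes all 12 KO libraries lay below the WT mean although the ranges overlapped. The genes were named for the size of their fall, so this count only describes them. Dio1 was not called on NP (log2 fold -0.48, edgeR adjusted p = 0.532), against a log2 fold of -1.39 on LP. Without WT_LP 6, which held 53.5 CPM, the pooled log2 fold of Dio1 was -0.74. The growth factor gene Mdk (log2 fold -1.01), the small nucleolar RNA Snord89 (-1.54) and the methyltransferase-like gene Mettl7a2 (-0.96) were lower in KO as well.

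Of the 45 gene lists, 18 had no called member and 5 had at least 3. Of the 849 tested genes in any list 45 were called, where 3.32% of all genes were. In lipid synthesis 2 of 28 tested genes were called, both lower in KO: Scd1, the stearoyl-CoA desaturase (9.13 to 27.5 CPM in KO, 13.8 to 69.0 CPM in WT; log2 fold -0.98, SE 0.18, edgeR adjusted p = 0.00249), and the elongase gene Elovl6 (log2 fold -0.42, adjusted p = 0.00184). The list's median was -0.03. None of 32 genes of fatty acid oxidation and PPAR alpha was called (median 0.17). Of the 72 oxidative phosphorylation genes 1 was called, the ATP synthase gene Atp5l (log2 fold 0.50), which lies in the chromosome 9 window, and the list's median was 0.00.

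In amino acid breakdown 4 of 49 tested genes were called, where 3.32% of all genes were. Bcat2, Glud1 and Prodh2 were higher in KO and Uroc1, the urocanase of histidine breakdown, lower; Bcat2 and the hydroxyproline dehydrogenase gene Prodh2 lie in the chromosome 7 stretch. Glud1, glutamate dehydrogenase, was at 387 to 790 CPM in KO (median 551) and 290 to 686 CPM in WT (median 394; log2 fold 0.46, SE 0.12, edgeR adjusted p = 0.0229). G6pc, the glucose-6-phosphatase that ends gluconeogenesis, was at 307 to 558 CPM in KO (median 425) and 432 to 1079 CPM in WT (median 643; log2 fold -0.62, SE 0.12, adjusted p = 0.00293). The list of ammoniagenesis and gluconeogenesis, which holds both Glud1 and G6pc, had no other called gene among its 15 (median 0.11). Of 29 tested ATF4 and amino acid starvation targets, Sesn2, a brake on mTORC1, was the only one called (11.7 to 30.1 CPM in KO, 16.8 to 60.3 CPM in WT; log2 fold -0.85, adjusted p = 0.00802), and the median was -0.01.

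In the heat shock list 14 of 16 tested genes had a negative log2 fold and 2 were called, where 3.32% of all genes were. The signs were counted and not tested. The called genes were Hspa8, whose counts are uncertain as described, and Hsph1 (38.5 to 57.5 CPM in KO, 49.8 to 157 CPM in WT, log2 fold -0.76, SE 0.17, edgeR adjusted p = 0.0132). The list's median was -0.20. In the unfolded protein response list 17 of 20 had a negative sign and 3 were called, Herpud1 (log2 fold -0.37, adjusted p = 0.0315), Manf (-0.57, adjusted p = 0.0472) and Creld2 (-0.59, adjusted p = 0.0498), with a median of -0.20. Herpud1 is a degradation factor of the endoplasmic reticulum, and Manf and Creld2 are secreted stress proteins. The calls of Herpud1 and Manf ended when single libraries were left out, with adjusted p up to 0.0608 and 0.0839. WT_NP 3 and WT_LP 2 held the highest WT values of Hsph1 (155 and 157 CPM, WT median 70.8). The same held for Hspa8 (740 and 758 CPM, WT median 479) and Manf (152 and 121 CPM, WT median 66.4). Hsph1 and Hspa8 stayed called without any single library (edgeR adjusted p up to 0.0242 and 0.0147). Leaving out WT_NP 3 and WT_LP 2 together was not tested. Of 18 p53 targets and genes of cell ageing, Ccng1 (cyclin G1) was called (log2 fold -0.34, adjusted p = 0.00131), with -0.16 on NP and -0.52 on LP; the median of that list was -0.14.

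Calls in the injury, matrix and immune lists were few in number, but the lists are short and only 3.32% of all genes were called. Cryab was the 1 gene called of 32 for tubular injury and repair, and Col5a2, a fibrillar collagen chain, the 1 of 30 for matrix and fibrosis (log2 fold -0.60, edgeR adjusted p = 0.0126). Bst2, which holds back budding viruses, was the 1 of 33 interferon stimulated genes (log2 fold -0.74, adjusted p = 0.0132). The chemokine genes Ccl28 (log2 fold 1.43, adjusted p = 0.026) and Cxcl12 (0.25, adjusted p = 0.0269) were the 2 called of 26 complement and chemokine genes. No gene was called among 18 MHC genes, 19 clock genes, 17 immediate early genes and 20 cell cycle genes. Gsta4 (log2 fold -0.50) was the 1 of 32 NRF2 and glutathione genes, at an adjusted p of 0.0498; that call ended without any of 19 single libraries (adjusted p up to 0.0885) and under 6 other settings. Slc20a1, a phosphate transporter, was the 1 of 17 in phosphate, vitamin D and calcium handling (log2 fold 0.44, adjusted p = 0.0345, and up to 0.0601 without single libraries).

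Several lists, immune and injury lists among them, had medians of opposite sign on the diets, which the pooled median hides. The median log2 fold of KO over WT was -1.17 on NP and 1.63 on LP for 15 B and plasma cell markers. It was -0.53 on NP and 1.11 on LP for 17 T and NK cell markers, and -0.47 on NP and 0.54 on LP for the 32 injury and repair genes. Their pooled medians were 0.38, 0.34 and 0.06. As mean log2 CPM, the B and plasma cell markers differed by -0.63 on NP and 1.65 on LP (exact permutation tests, adjusted p = 0.403 and 0.106). The T and NK cell markers differed by -0.42 and 1.04 (same tests, adjusted p = 0.324 and 0.106). Medians of other lists changed sign too, such as proximal tubule S1 and S2 (0.22 on NP, -0.25 on LP) and immediate early genes (-0.46 and 0.49). On LP alone 6 of the 15 B and plasma cell markers were called, where 2.93% of all genes were, and on NP 0. Igha, the heavy chain of IgA, was the only B and plasma cell marker called in the pooled comparison. It was at 86.3 to 974 CPM in KO (median 492) and 97.6 to 539 CPM in WT (median 188; log2 fold 1.31, SE 0.30, edgeR adjusted p = 0.0142, against 0.0737 with limma voom), and the summed B and plasma cell markers were at 2185 to 22680 CPM in KO and 539 to 16160 CPM in WT. In bulk tissue a change in cell number and a change in RNA per cell cannot be told apart.

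Of the 176 tested markers of nephron segments and other cell types 11 were called, where 3.32% of all genes were. Lower in KO were Slc22a13 and Serpina1f of proximal tubule S3, the potassium channel gene Kcnj1 of the thick ascending limb (log2 fold -0.36, edgeR adjusted p = 0.0109), the podocyte gene Nphs1 (nephrin, -0.45, adjusted p = 0.0441), the endothelial genes Eng (-0.31, adjusted p = 0.0172) and Cdh5 (-0.38, adjusted p = 0.0352), and Cryab and the inositol transporter gene Slc5a3 (-0.75, adjusted p = 0.00423) of medulla and papilla. Higher were Cyp2e1 of proximal tubule S3 (0.57, adjusted p = 0.0224), Igha and the liver marker Apoc3. Nphs1 lies in the chromosome 7 stretch, and its call ended without single libraries (adjusted p up to 0.0845), as did that of Cdh5 (up to 0.0635). Of the 10 podocyte markers 0 had a positive sign (median log2 fold -0.21), and of the 13 endothelial markers 1 (median -0.15). As mean log2 CPM the podocyte markers differed by -0.185 (permutation test, adjusted p = 0.208). Medulla and papilla markers summed to 853 to 1223 CPM in KO and 1081 to 1785 CPM in WT, with 2 of 6 called and a median log2 fold of -0.52. Their part in the lower levels of Cryab, Slc5a3 and Kcnj1 was not tested. None of the 8 red cell markers was called, all 8 had a positive sign, and their sum was 1406 to 9384 CPM in KO and 1188 to 4091 CPM in WT.

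Within each diet the contrast compares 6 KO with 6 WT libraries, with the spread estimated over all 24. On NP 87 genes were called (0.574%), 52 higher (0.343%) and 35 lower in KO (0.231%). On LP 445 were called (2.93%), 204 higher (1.35%) and 241 lower (1.59%). These counts moved with single libraries: the NP count was 52 without KO_NP 1 and 151 without KO_LP 6, and the LP count 180 without WT_LP 1 and 733 without WT_LP 3. With an immune marker covariate the LP split was 181 higher and 68 lower. Called on both diets were 45 genes, all with the same sign, which is 51.7% of the NP calls and 10.1% of the LP calls. Of these 45 genes, 29 lie on chromosome 7, 6 on chromosome 9 and 4 on chromosome 19. The 6 elsewhere were Gm15459, Gm11942, Gm9008, Shroom1, Acp6 and Dnah14, of which the first 3 are the copies described above. Gm17511, also a copy of Rplp1, is counted among the 29 of chromosome 7 and lies beyond the stretch from 20 to 100 Mb. In the chromosome 7 stretch from 20 to 100 Mb, 28 genes were called on both diets, while outside the stretches of chromosomes 7, 9 and 19 the count was 10 of 14434 genes tested. Of the 504 pooled calls, 259 were called on neither diet alone, and all 504 had the same sign on both, which the choice of genes called on the pooled effect favours.

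**Figure D5:**
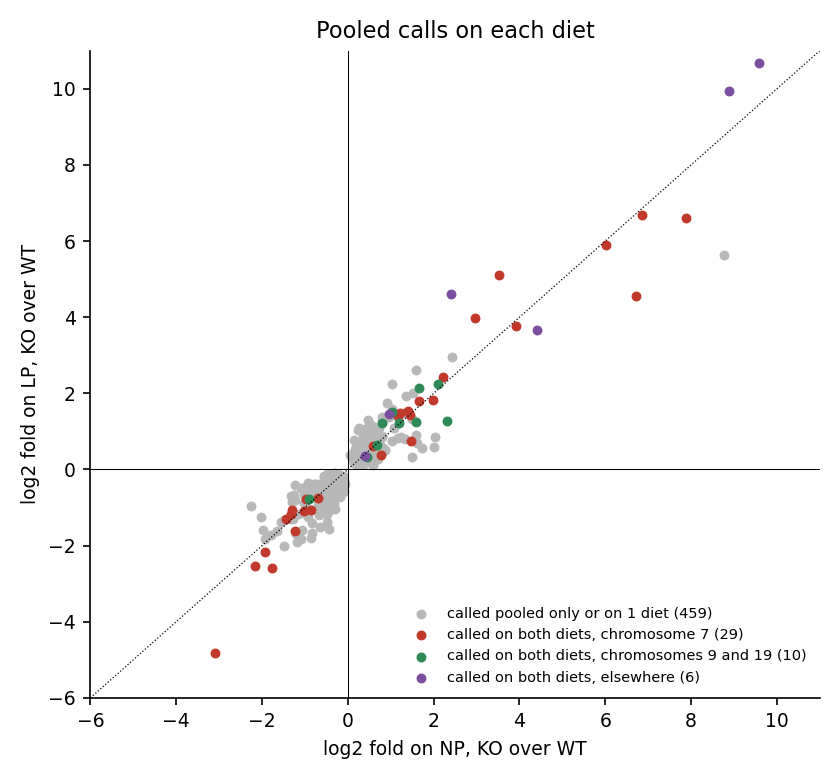
log2 fold of KO over WT on LP (vertical axis) against that on NP (horizontal axis) for the 504 genes called in the pooled comparison, with the 45 genes called on both diets coloured by chromosome and a dotted line of equality. The 29 coloured genes of chromosome 7 have the same sign on both diets, from -3.09 for Gm42397 to 7.88 for Gm26862 on NP.

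Whether the genotype effect depended on diet was tested as the difference of the effects, LP minus NP. edgeR called no gene (0 of 15165, 0%). In that test 2430 genes had an unadjusted p under 0.05, where 758 would be expected by chance. The lack of calls thus does not show that the effect was the same on both diets. DESeq2 called 117 (60 with a positive LP minus NP difference, 57 with a negative one), and the limma fits called 0. The 5 genes with the smallest p were Gm26532 (difference 0.92), Gm43190 (-2.37), Pyurf (-0.49), Calb1 (-1.38) and S1pr4 (1.55), each with an edgeR adjusted p of 0.158. Calb1, the calcium carrier of the distal tubule, averaged 168 ± 42.0 CPM in KO_NP and 119 ± 26.9 CPM in KO_LP, against 108 ± 35.8 CPM in WT_NP and 199 ± 36.1 CPM in WT_LP (SD, n = 6 each). Its pooled log2 fold was -0.06, so the pooled effect was near 0 where the effects on the diets had opposite signs.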

How the data were processed

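Kidney cortex RNA of 24 mice was measured as Lexogen QuantSeq libraries. The authors deposited read counts per gene and normalized values, a signal equal to the counts divided by 1 size factor per library. Per the submitters' processing notes the build was GRCm38 and DESeq2 1.22.2 was used; aligner, counter and strand setting: not given in the sources used here. No gene had a mean count under 3, so low genes had been removed before deposit. GENCODE M21 gave coordinates, transcripts and 2668 symbols.

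Counts were fitted with edgeR 4.0.16 in R 4.3.3: filterByExpr on the 4 groups, TMM factors, a robust quasi-likelihood fit of genotype and diet, two-sided tests and Benjamini-Hochberg adjustment over 15165 genes, with calls at an adjusted p under 0.05. Effects within each diet and their difference came from a fit of 4 group means, whose spread is estimated over all 24 libraries. SE is the standard error of a log2 fold, and CPM are counts scaled to the TMM-adjusted library total. Library measures were compared by permutation with 100000 resamples, and exactly within a diet. Copies were aligned with blastn, and their stretches of 50 bases were matched exactly. The fits were tested on simulated data.

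Genes were named by rule: of the called genes averaging 5 CPM or more, clone names left out, the 15 that rose and the 15 that fell most; the 5 smallest p in each direction, up to 2 called members per list, Fgfr1 and Kl, and the 5 smallest p for LP minus NP. Not every gene so taken is described. Outside the rule, and chosen after their values were seen, are Ostf1, Tmprss4, Treh, Rnf26, Gm9008, Gm10073, Gm11942, Gm17511, Gm28078, Gm35082 and Gm42397, which count among the 80 named genes. Further called members of a list are named where the list is described, and genes in counts of calls on both diets where they are counted. The comparison, the lists and these rules were chosen with earlier results of these data known. Replicate numbers follow sample order and only name samples. Nothing says that replicates were processed apart, so p-values measure the spread between these samples. Between replicates of a group, chi-square per degree of freedom was 5.8 to 69.0, and the biological coefficient of variation was 20.7%. Alternatives were DESeq2 1.42.0 and its size factors, limma 3.58.1 (voom with quality weights, and on log2 of the normalized values plus 1), other filters, 1 surrogate variable (sva 3.50.0), an immune marker covariate, thinned counts, group means, left-out libraries and, chosen after seeing the data, summed copies.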

Additional observations from a re-analysis of the deposited data

Results flagged for a closer look

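Within groups of 6 libraries, a value was picked out where the highest or lowest library stood far from the other 5 by Dixon's criterion. Over the 80 named genes and 320 such groups this gave 42 values, where chance alone would give about 1 in 20 groups, or 16. Standing above the other 5 libraries of its KO group was Igha with 974 CPM in KO_LP 5, Apoc3 with 53.7 CPM in KO_LP 6, Mpzl2 with 59.3 CPM in KO_LP 2 and Rarres2 with 444 CPM in KO_NP 2. The same held for Cyp2j9 with 23.3 CPM in KO_LP 6, Scd1 with 21.6 CPM in KO_LP 4, Slc22a13 with 48.6 CPM in KO_LP 1 and Lrrc28 with 16.6 CPM in KO_NP 6. Also above was Lrrc28 with 15.2 CPM in KO_LP 6, Emc10 with 79 CPM in KO_NP 2, Crtc3 with 14.4 CPM in KO_NP 6 and Sesn2 with 30.1 CPM in KO_LP 6. Further ones were Ccl28 with 17.1 CPM in KO_NP 5, Slc20a1 with 79 CPM in KO_LP 6, Hsph1 with 57.5 CPM in KO_NP 3 and Gm26532 with 5.95 CPM in KO_NP 1. The others were Gm17511 with 6.56 CPM in KO_LP 2, Gm11942 with 1610 CPM in KO_LP 2, Gm28078 with 1.87 CPM in KO_NP 1 and Gm42397 with 5.04 CPM in KO_NP 6. Standing below the other 5 libraries of its KO group was Hddc3 with 18.7 CPM in KO_NP 6 and Cdh5 with 8.69 CPM in KO_NP 6. Standing above the other 5 libraries of its WT group was Hddc3 with 8.39 CPM in WT_LP 6, Apoc3 with 10.4 CPM in WT_LP 5, Zbtb16 with 16.3 CPM in WT_LP 3 and Gm15459 with 0.266 CPM in WT_NP 5. The same held for Gm15459 with 0.217 CPM in WT_LP 2, Gm44954 with 0.0532 CPM in WT_NP 5, Lmtk3 with 5.33 CPM in WT_NP 6 and Glud1 with 686 CPM in WT_NP 2. Also above was Ccl28 with 9.37 CPM in WT_LP 1, Manf with 152 CPM in WT_NP 3, Eng with 45.9 CPM in WT_LP 6 and Gm43190 with 3.65 CPM in WT_NP 4. Further ones were S1pr4 with 2.54 CPM in WT_LP 3, Gm17511 with 0.543 CPM in WT_NP 2 and Gm11942 with 2.9 CPM in WT_LP 2. Standing below the other 5 libraries of its WT group was Klk1b22 with 0.261 CPM in WT_NP 1, Ugt2b37 with 147 CPM in WT_NP 6, Lrrc28 with 16.3 CPM in WT_NP 1 and Eng with 25.6 CPM in WT_NP 2. The same held for Pyurf with 30.4 CPM in WT_NP 1.

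For 4 of the genes with the smallest p for the diet difference, every KO library lay on opposite sides of the WT mean on NP and LP. The LP minus NP difference of the log2 folds was 0.92 for Gm26532, -2.37 for Gm43190, -1.38 for Calb1 and 1.55 for S1pr4. The edgeR test of that difference called none of them (adjusted p = 0.158 for each).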

How the results depend on the processing

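The pooled count of 504 calls was 791 with DESeq2, 957 with limma voom, 906 with 1 surrogate variable and between 407 and 698 under the other settings; leaving out single libraries gave 393 (without WT_LP 6) to 711 (without WT_NP 1). Of the 504 genes, 503, 489 and 504 were among those first 3 sets of calls. The NP count of 87 was 246 with DESeq2, 140 with limma voom and 54 with at least 5 CPM in at least 12 libraries, and 52 (without KO_NP 1) to 151 (without KO_LP 6) without single libraries. The LP count of 445 was 910 with DESeq2, 877 with limma voom, 290 with 1 surrogate variable, 249 with the immune marker covariate (181 higher and 68 lower, against 204 and 241) and 200 without WT_NP 1, KO_LP 4 and KO_LP 6; without single libraries it ran from 180 (without WT_LP 1) to 733 (without WT_LP 3), with 708 without WT_NP 1, 208 without KO_LP 4, 233 without WT_LP 2, 268 without WT_LP 5 and 263 without WT_LP 6. The diet difference of 0 calls was 117 with DESeq2 and 0 under every other setting, single libraries left out included. The cause was not tested.

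Of 73 named genes called, 10 lost the call when some single library was left out, namely Gsta4 (without any of 19 libraries), Nphs1 and Rpl13a (18 each), Manf (16), Rnf26 (15), Slc20a1 (11), Herpud1 and Cdh5 (7 each), Fam25c (6) and Cxcl12 (1), and none turned its sign. Under other settings calls ended for Gsta4 (6 settings), Manf (5), Nphs1 and Rpl13a (3 each), Cdh5 (2), and Gm15459, Gm35082, Igha, Apoc3, Fam25c and Rnf26 (1 each). Reversed were the log2 fold of Kl, 0.019 with limma voom, 0.029 with 1 surrogate variable, 0.080 with the immune marker covariate, 0.014 without WT_NP 1, KO_LP 4 and KO_LP 6, and between -0.13 (without WT_NP 2) and 0.027 (without WT_LP 2, with 0.020 without KO_LP 6) when single libraries were left out, the log2 fold of Rplp1, 0.33 with its copies summed, and the log2 fold of Rnf26, 0.11 with Gm9008 summed. Within a diet the medulla and papilla markers differed by -0.81 on NP (adjusted p = 0.11) and -0.37 on LP (adjusted p = 0.106), the endothelial markers by -0.18 on NP (adjusted p = 0.11) and -0.14 on LP (adjusted p = 0.15), and the library totals by -2.99 M on NP (adjusted p = 0.257) and -4.31 M on LP (adjusted p = 0.0411), by exact permutation tests of 6 against 6. With counts thinned to the smallest library 363 of the 504 genes were still called. No paired analysis was possible because the labels give no replicate numbers that samples of different groups share.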
